A study of Homo sapiens with 6 samples.

Results

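The genes described here make, modify, activate, store and burn fatty acids, and they were compared between PANC1, an established line of human pancreatic ductal carcinoma cells, and PANC1OR, its oxaliplatin-resistant subline. A list of 39 gene symbols defined the set, and each symbol matched 1 of the 58735 gene rows of the count table, so 39 genes of 58735 are described. PANC1 was untreated, and PANC1OR was derived from it by passaging in rising doses of oxaliplatin, a DNA-damaging platinum compound, until it grew stably with no drug. Both lines carry the PANC1 background and were kept in DMEM with serum. PANC1OR is 1 derived subline, and each line gave 3 libraries from triplicate cultures. The p-values therefore reflect culture-to-culture spread and not that among independently selected sublines. In bulk RNA, a change in the share of cells that express a gene cannot be told apart from a change in RNA per cell.

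Cells build fatty acids from acetyl-CoA, which ATP citrate lyase (ACLY) releases from citrate and ACSS2 makes from acetate. Acetyl-CoA carboxylase and fatty acid synthase turn it into palmitate, elongases of the ELOVL family lengthen the chain, and desaturases of the SCD and FADS families add double bonds. Acyl-CoA synthetases activate fatty acids either for storage as triglyceride in lipid droplets or for entry into mitochondria through CPT1A and oxidation. The transcription factor SREBP1, encoded by SREBF1, drives many synthesis genes, and the PPAR nuclear receptors respond to fatty acids. Pancreatic carcinomas are known for active fatty acid synthesis.

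Depth ranged from 10199268 to 26394388 counted reads, and levels are given as CPM, reads scaled by library total and TMM factor to a depth of 1e6. The 8 ductal and epithelial markers summed to 1070 to 1960 CPM in PANC1 and 687 to 1400 CPM in PANC1OR, most of it from the keratin genes KRT8 and KRT18, with KRT7 at most 3.385 CPM. Of these markers, KRT19 (14.07-fold lower, adjusted p = 0.000635), CDH1 (2.326-fold lower, 0.00613) and SOX9 (0.0447, called in 1 of the 6 fits without 1 library) fell in PANC1OR. The 5 leukocyte markers summed to 0.56 to 0.836 CPM in PANC1 and 2.39 to 5.04 CPM in PANC1OR, where CD14 rose 9.478-fold (adjusted p = 0.00412), PTPRC had 17 reads against 2, ITGAM had 4 against 13 and CD3E had 0 in both lines. The 5 fibroblast markers summed to 81.0 to 95.8 and 110 to 292 CPM, nearly all from COL1A1, and hepatocyte markers to at most 0.248 CPM. The part of these cell type markers in the results was not tested. PANC1OR replicate 3 stood apart from replicates 1 and 2 by GC content: over all tested genes its median log2 difference from them was 1.32 for genes above 60% GC and -0.952 for genes below 40% GC. Over the 36 tested fatty acid genes, this difference correlated with GC content at r = 0.925, a description of 3 libraries that share their cell line. PANC1 replicate 2 differed from replicates 1 and 3 in the same way but less (r = 0.444 over the same 36 genes). Results that rest on PANC1OR replicate 3 are also given without it, and the part of GC content in them was not tested beyond the fit with GC offsets, which removes a smooth GC trend from every library.

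Of the 39 genes, 36 passed the filter on low counts, and 7 of these rose and 4 fell in PANC1OR (edgeR quasi-likelihood test, adjusted p under 0.05). That is 30.6% of the tested members, beside 17.8% of all 18751 tested genes (10.3% higher and 7.50% lower). The genes that rose were ELOVL6, PLIN2, PPARG, ACSS2, ACSL1, SCD and PPARA, and those that fell were ELOVL4, SCD5, ACACA and ACLY. The median log2 fold change (PANC1OR minus PANC1) was 0.11 over the members and 0.04 over all tested genes. The libraries of the lines did not overlap for 18 members, 9 higher and 9 lower in PANC1OR, beside 36.5% of all tested genes (18.9% higher and 17.6% lower). Past the cutoffs of the series design text (absolute log2 fold change over 2 and adjusted p under 0.01) were 5 members, ELOVL4, ELOVL6, SCD5, PPARG and PLIN2, beside 6.25% of all genes. Without PANC1OR replicate 3, 14 members rose and 10 fell of 37 tested (64.9%), beside 44.1% of all genes in that fit (22.1% higher and 22.0% lower). With GC offsets 14 rose and 8 fell of 36, beside 39.0% of all genes (19.9% higher and 19.1% lower). The 11 members called with GC offsets but not by the same test without them were FASN, SREBF1, ELOVL2, ELOVL5, ACSL3, ACSL4, ACADVL, PPARD, LPIN1, DGAT1 and DGAT2. Of the 11 calls with 6 libraries, those of ELOVL6, PLIN2, PPARG, ACSS2, SCD5 and ELOVL4 were kept in each of the 6 fits that left out 1 library. ELOVL4 and SCD5, with no or few reads in PANC1OR, passed the filter on low counts only through PANC1.

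**Figure D1:**
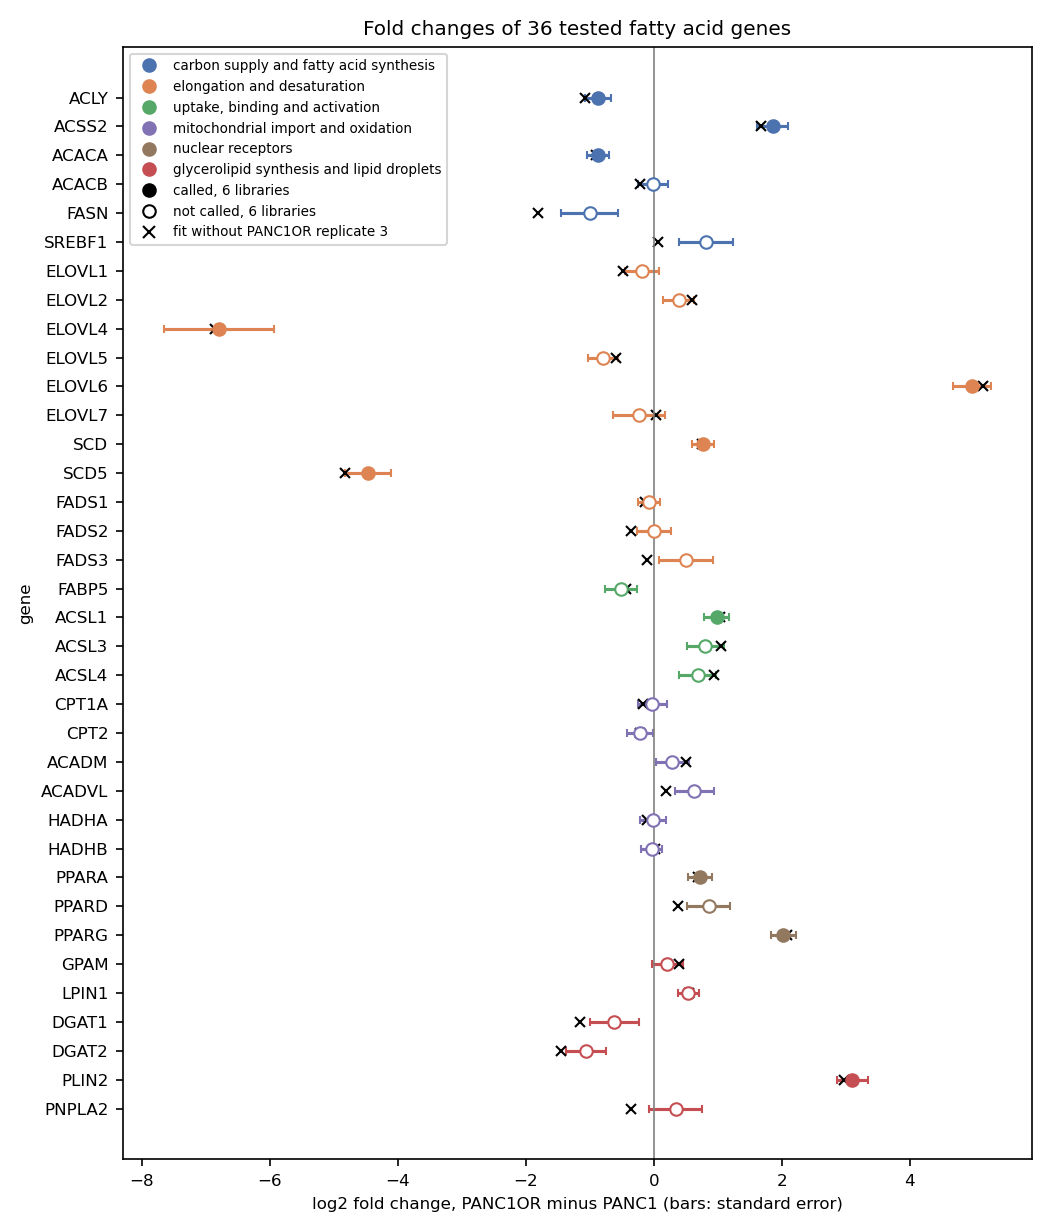
Log2 fold change (x axis, PANC1OR minus PANC1) of the 36 tested genes (y axis, by role in colour), with standard errors, filled where the adjusted p was under 0.05, and crosses for the fit without PANC1OR replicate 3. ELOVL6 at 4.97 and PLIN2 at 3.10 lie farthest to the right, SCD5 at -4.46 and ELOVL4 farthest to the left, FASN moves from -1.0 to -1.81 without that library, and the position of ELOVL4, with 0 reads in PANC1OR, depends on the prior count of the fit.

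Among genes of carbon supply and fatty acid synthesis, the acetate-using enzyme gene rose while the citrate-using one and the carboxylase gene fell: of 6 tested, 1 rose, 2 fell and 3 did not pass. ACSS2 (ENSG00000131069, chromosome 20, 34872146 to 34927962), which makes acetyl-CoA from acetate, was at 10.46, 13.89 and 14.86 CPM in PANC1 replicates 1 to 3 and at 42.23, 41.78 and 58.13 CPM in PANC1OR replicates 1 to 3. The lowest PANC1OR library was well above the highest PANC1 library, and the log2 fold change was 1.86 ± 0.24 (SE; adjusted p = 0.00139, edgeR quasi-likelihood test). ACLY (ENSG00000131473, chromosome 17, 41866917 to 41930542) was at 319, 347 and 347 CPM in PANC1 and at 164, 159 and 234 CPM in PANC1OR. All PANC1OR libraries were lower, with replicate 3 the nearest to PANC1, and the log2 fold change was -0.86 ± 0.20 (adjusted p = 0.0213). The ACLY call rested on every library but PANC1OR replicate 3: the adjusted p was 0.0729, 0.0694 and 0.0989 without PANC1 replicates 1, 2 and 3, 0.0935 and 0.0909 without PANC1OR replicates 1 and 2, and 0.000153 without PANC1OR replicate 3.

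Compared per kilobase of the MANE Select transcript (the agreed reference transcript of a gene), ACSS2 made up 5.42% ± 0.70 (SD, n = 3) of the summed CPM per kb of ACLY and ACSS2 in PANC1 and 27.6% ± 0.58 in PANC1OR. The share was 26.98 to 28.13% in the 3 PANC1OR libraries, so replicate 3 was close to the others here. The transcripts of ACSS2 and ACLY have similar GC content, 53.68% and 52.34%. The sum of both genes was 83.2 ± 4.48 CPM per kb in PANC1 and 59.7 ± 13.0 in PANC1OR. ACLY remained the gene with the higher level per length in each library.

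ACACA, which encodes the cytosolic acetyl-CoA carboxylase that makes malonyl-CoA (ENSG00000278540, chromosome 17, 37084992 to 37406836), was at 364, 300 and 390 CPM in PANC1 and at 189, 192 and 193 CPM in PANC1OR. The groups did not overlap and the PANC1OR libraries were nearly equal, with a log2 fold change of -0.88 ± 0.17 (adjusted p = 0.0101). ACACA missed the threshold when PANC1 replicate 1 (adjusted p = 0.0578), PANC1 replicate 3 (0.068) or PANC1OR replicate 1 (0.0531) was left out. ACACB, the gene of the mitochondrial carboxylase whose malonyl-CoA restrains CPT1, was at 19.95 to 25.01 CPM in PANC1 and 19.14 to 27.91 CPM in PANC1OR (log2 fold change -0.01 ± 0.23, adjusted p = 0.989).

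FASN, which encodes fatty acid synthase (ENSG00000169710, chromosome 17, 82078338 to 82098294), was at 1129, 1054 and 1154 CPM in PANC1 and at 342, 296 and 1031 CPM in PANC1OR. PANC1OR replicates 1 and 2 were far below PANC1, and replicate 3 lay just under the lowest PANC1 library. With 6 libraries the log2 fold change was -1.0 ± 0.45 and FASN was not called (adjusted p = 0.18, and 0.0182 with no filter on low counts). Without PANC1OR replicate 3 it was -1.81 ± 0.14 (adjusted p = 2.55e-05), and after GC offsets -1.21 ± 0.16 (adjusted p = 0.000292). The longest FASN transcript has 65.28% GC, the highest of the tested members, and PANC1OR replicate 3 exceeded the mean of replicates 1 and 2 by 1.69 in log2.

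SREBF1 (ENSG00000072310, chromosome 17, 17810399 to 17837002) showed the same split. It was at 74.15, 81.37 and 89.36 CPM in PANC1, at 93.03 and 78.62 CPM in PANC1OR replicates 1 and 2, and at 259.5 CPM in replicate 3. The groups overlapped, and the log2 fold change of 0.81 ± 0.43 (adjusted p = 0.254) was 0.06 ± 0.13 without PANC1OR replicate 3 (adjusted p = 0.723). With GC offsets it was 0.64 ± 0.14 (adjusted p = 0.00549), so the call of SREBF1 depended on how the GC difference was treated.

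**Figure D2:**
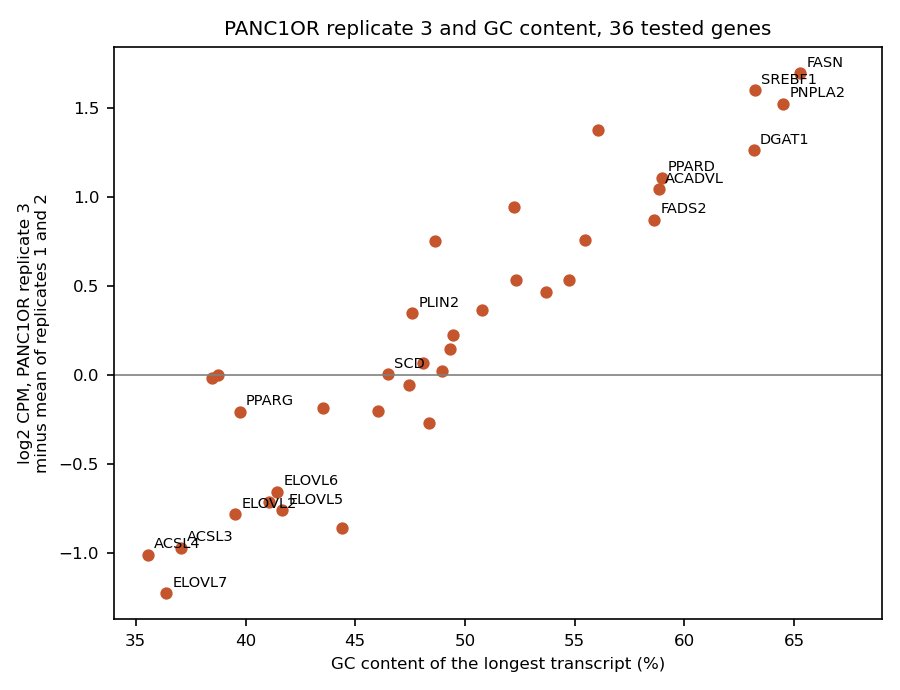
Difference in log2 CPM between PANC1OR replicate 3 and the mean of replicates 1 and 2 (y axis) against the GC content of the longest transcript in percent (x axis), 1 point for each of the 36 tested genes. The points rise from ACSL4, ACSL3 and ELOVL7 at the lower left to FASN, SREBF1 and PNPLA2 at the upper right (r = 0.925).

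Elongase and desaturase genes held the widest changes of the set: of 11 tested, 2 rose, 2 fell and 7 did not pass. ELOVL6, the elongase that takes palmitate to stearate (ENSG00000170522, chromosome 4, 110045846 to 110199199), was at 1.619, 1.567 and 1.407 CPM in PANC1 and at 53.6, 55.95 and 34.76 CPM in PANC1OR. The lines were far apart in all libraries, and PANC1OR replicate 3 was the lowest of its line. The log2 fold change was 4.97 ± 0.29 (31.35-fold, adjusted p = 3.59e-05). ELOVL4, which builds very long chains and is known from retina, skin and brain, had 13, 10 and 12 reads in PANC1 and 0 in each PANC1OR library, at least 15.25-fold lower against a floor of 3 reads over the group. The adjusted p of ELOVL4 was 0.00325, and its level in PANC1, 0.863 ± 0.162 CPM, was the lowest of the tested members in that line. With 0 reads in PANC1OR, ELOVL4 passed the filter on low counts only through PANC1, where it was higher, so its call in that fit was made after that selection. With no filter, edgeR's quasi-likelihood test also called it lower (adjusted p = 1.09e-05).

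The remaining elongase genes did not pass edgeR's quasi-likelihood test on 6 libraries with the filter on low counts and without GC offsets. ELOVL5, which extends polyunsaturated chains, was at 386, 354 and 400 CPM in PANC1 and at 259, 247 and 149.5 CPM in PANC1OR. The groups did not overlap, and the log2 fold change of -0.80 ± 0.24 just missed the threshold (adjusted p = 0.0518). ELOVL5 passed with PANC1OR replicate 3 left out (-0.60 ± 0.12, adjusted p = 0.00404) and, on 6 libraries, with GC offsets (0.00018), DESeq2 (0.0206), the likelihood ratio test (0.0193) and no filter (0.0288). ELOVL2, which acts on longer polyunsaturated chains, was at 91.18 to 107.0 CPM in PANC1 and at 156.3, 147.5 and 88.35 CPM in PANC1OR. Its log2 fold change was 0.39 ± 0.24 on 6 libraries (adjusted p = 0.335), 0.31 ± 0.09 with GC offsets (0.0198) and 0.59 ± 0.11 without PANC1OR replicate 3 (0.00352). ELOVL1, for saturated very long chains, stood at -0.18 ± 0.27 (adjusted p = 0.714, and 0.0319 without PANC1OR replicate 3, at -0.49 ± 0.15), and ELOVL7 at -0.23 ± 0.40 (adjusted p = 0.762).

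Per kilobase, ELOVL5 had the highest level of the 6 elongase genes in PANC1, with 65.1% ± 3.28 of their summed CPM per kb, and ELOVL6 had 0.111% ± 0.0101. In PANC1OR, ELOVL5 held 48.3% ± 8.2 and ELOVL6 4.49% ± 0.64. ELOVL1 moved from 22.4% ± 4.17 to 26.9% ± 12.5, and within PANC1OR it was at 19.66 and 19.63% in replicates 1 and 2 and at 41.26% in replicate 3, where it exceeded ELOVL5. The order of ELOVL1 and ELOVL5 in PANC1OR therefore differed between libraries. After its 31.35-fold rise, ELOVL6 was still a small part of the elongase RNA.

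**Figure D3:**
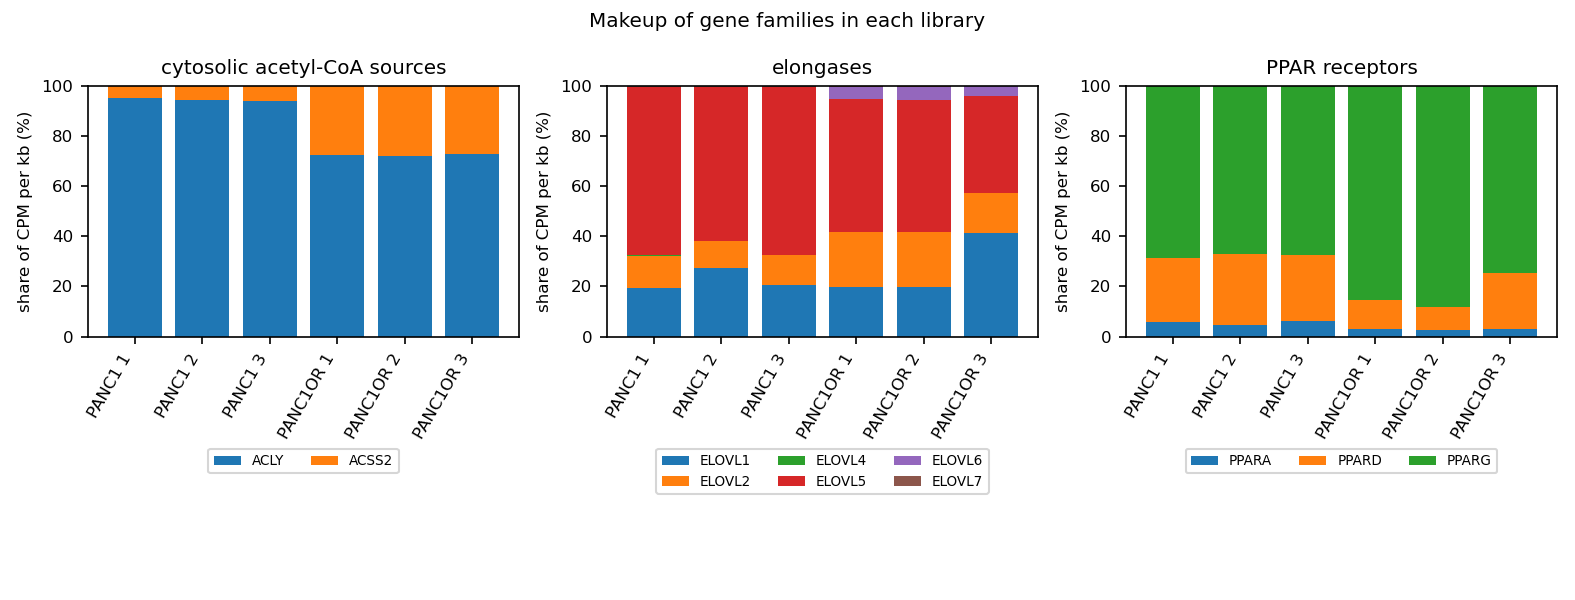
Share of the summed CPM per kb (y axis, percent) held by each gene of 3 groups in each of the 6 libraries (x axis): ACLY with ACSS2, the 6 elongase genes, and the 3 PPAR genes. ACSS2 takes 26.98 to 28.13% in PANC1OR against 4.645 to 5.992% in PANC1, ELOVL6 becomes visible in PANC1OR, and ELOVL1 and PPARD are larger in PANC1OR replicate 3 than in replicates 1 and 2.

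The paralogous desaturase genes SCD and SCD5 went in opposite directions. SCD, which encodes stearoyl-CoA desaturase, the enzyme that makes oleate and palmitoleate (ENSG00000099194, chromosome 10, 100347233 to 100364826), was at 1497, 1662 and 1736 CPM in PANC1 and at 2794, 2764 and 2794 CPM in PANC1OR. The groups did not overlap (log2 fold change 0.77 ± 0.17, adjusted p = 0.0156). Without PANC1 replicate 1 or 3 the adjusted p of SCD was 0.0925 and 0.0644, and without PANC1OR replicate 1 or 2 it was 0.0721 and 0.0638, with log2 fold changes of 0.70 to 0.81. SCD5, a second desaturase known from brain and pancreas (ENSG00000145284, chromosome 4, 82629539 to 82798796), was at 7.471, 8.878 and 8.257 CPM in PANC1 and at 0.2243, 0.3747 and 0.578 CPM in PANC1OR, where it had 6, 6 and 7 reads. Its log2 fold change was -4.46 ± 0.36 (22.07-fold lower, adjusted p = 0.000134).

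SCD was the tested member with the highest level per length in both lines, 311 CPM per kb in PANC1 and 531 in PANC1OR. In PANC1 it was followed by ELOVL5 at 137 and FASN at 131 CPM per kb, and in the PANC1OR means by FADS2 at 102 and ACADVL at 93.2 CPM per kb. That order rested on PANC1OR replicate 3 (145.7 and 141.9 CPM per kb): in replicates 1 and 2 ELOVL5 came next after SCD, at 93.76 and 89.28 CPM per kb, ahead of FADS2 at 79.82 and 79.36. SCD5 therefore contributed little to the desaturase RNA even in PANC1, at 0.860% ± 0.0498 of the sum of both genes, and 0.0243% ± 0.0109 in PANC1OR.

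The FADS genes, which lie together on chromosome 11 and of which FADS1 and FADS2 desaturate polyunsaturated fatty acids, did not pass. FADS1, the delta-5 desaturase, was at 286 to 358 CPM in PANC1 and 284 to 318 CPM in PANC1OR (log2 fold change -0.07 ± 0.17, adjusted p = 0.838). FADS2, the delta-6 desaturase, was at 285.1, 342.5 and 314.5 CPM in PANC1 and at 246.7, 245.3 and 450.4 CPM in PANC1OR. Its mean was 314 CPM in each line, with PANC1OR replicate 3 the highest library of all, and without replicate 3 it fell by 0.36 on the log2 scale (± 0.12, adjusted p = 0.0389). FADS3 stood at 0.50 ± 0.42 (adjusted p = 0.489), with 26.59 CPM in PANC1OR replicate 3 against a mean of 10.2 CPM in replicates 1 and 2, and at -0.11 ± 0.22 without that library (0.721). Exons of FADS1 and FADS2 overlap on opposite strands, and the counting is not known to have used strand, so their reads may be mixed.

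Promoter sequence is shown for the 4 members with reads in both lines that changed by more than 2 on the log2 scale, since these carry the main differences. RefSeq (GRCh38.p14) gave 300 bases, 250 before to 50 after the gene's start, for 35 of the 39 members, with none for FASN, DGAT1, DGAT2 and FABP5. Both strands were searched for the sterol regulatory element core TCACNCCAC, which SREBPs bind, for the PPAR direct repeat known as DR1, for the E-box CACGTG and for the NF-Y box CCAAT, whose factor often acts with SREBPs. The E-box and the NF-Y box were added to the search after results had been seen. The sequences are ELOVL6 (chr4:110198566-110198865, minus strand), PLIN2 (chr9:19127443-19127742, minus strand), PPARG (chr3:12287118-12287417, plus strand) and SCD5 (chr4:82798747-82799046, minus strand), each 5′ to 3′ with matches in capitals.
ELOVL6: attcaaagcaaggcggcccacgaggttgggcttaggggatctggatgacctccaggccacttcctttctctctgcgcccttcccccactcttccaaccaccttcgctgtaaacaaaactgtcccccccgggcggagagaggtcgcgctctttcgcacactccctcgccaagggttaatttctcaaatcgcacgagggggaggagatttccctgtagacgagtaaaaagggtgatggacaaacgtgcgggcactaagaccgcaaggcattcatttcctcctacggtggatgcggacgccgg
PLIN2: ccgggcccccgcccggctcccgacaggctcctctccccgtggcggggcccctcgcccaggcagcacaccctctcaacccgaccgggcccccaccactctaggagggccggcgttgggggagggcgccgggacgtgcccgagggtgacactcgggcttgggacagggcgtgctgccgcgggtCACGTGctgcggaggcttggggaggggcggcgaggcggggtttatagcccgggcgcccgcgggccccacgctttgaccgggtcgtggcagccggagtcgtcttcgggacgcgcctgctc
PPARG: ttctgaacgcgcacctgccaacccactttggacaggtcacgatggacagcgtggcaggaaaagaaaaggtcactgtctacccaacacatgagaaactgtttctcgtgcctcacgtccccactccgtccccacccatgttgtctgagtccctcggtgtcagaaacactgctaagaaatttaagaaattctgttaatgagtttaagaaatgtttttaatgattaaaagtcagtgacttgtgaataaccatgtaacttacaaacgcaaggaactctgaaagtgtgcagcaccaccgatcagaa
SCD5: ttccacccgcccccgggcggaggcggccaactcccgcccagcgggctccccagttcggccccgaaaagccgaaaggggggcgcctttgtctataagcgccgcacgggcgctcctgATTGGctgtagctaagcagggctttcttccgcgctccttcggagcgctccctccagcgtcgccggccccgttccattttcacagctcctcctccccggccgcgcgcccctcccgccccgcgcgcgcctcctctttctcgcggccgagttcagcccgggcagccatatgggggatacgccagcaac

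In these windows PLIN2 had an E-box whose first base lies 69 bases before the start, SCD5 had an NF-Y box in reverse orientation 135 bases before it, and ELOVL6 and PPARG had no match. The sterol core was found in 1 of the 35 members (2.86%), PNPLA2, beside 1.13% of 35116 RefSeq promoters. The DR1 letters were in 0 of 35 members and 0.0228% of all promoters, the NF-Y box in 12 members (34.3%) beside 34.6%, and the E-box in 3 members (8.57%) beside 7.26%. The NF-Y box was in members that rose (SCD, ACSS2, PPARA) and in members that fell (ACLY, SCD5, ELOVL4). The windows cover 1 RefSeq start per gene, which for 25 of the 35 members lies inside the gene's GENCODE span and not at its outer end. Of the sequences shown, that of PLIN2 starts 21798 bases and that of ELOVL6 584 bases inside the span, and those of PPARG and SCD5 start at its end. A match is a description of letters and no binding was measured.

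Genes of uptake, binding and activation had 1 call among 4 tested of 7. ACSL1, an acyl-CoA synthetase linked to triglyceride synthesis and oxidation (ENSG00000151726, chromosome 4, 184755595 to 184826818), was at 24.09, 20.79 and 25.2 CPM in PANC1 and at 48.66, 47.96 and 41.95 CPM in PANC1OR. The groups did not overlap and the log2 fold change was 0.98 ± 0.19 (adjusted p = 0.00933). Leaving out PANC1OR replicate 1 (adjusted p = 0.0522) or, from the parental line, replicate 1 (0.0573) or 3 (0.0517) ended the call of ACSL1. ACSL3, a synthetase of lipid droplets, was at 199.7, 146.1 and 190.9 CPM in PANC1 and at 378.4, 369.3 and 191.2 CPM in PANC1OR. ACSL4, which prefers arachidonate and is known for its part in ferroptosis, was at 104, 79.59 and 94.8 CPM in PANC1 and at 176.5, 181.7 and 89.09 CPM in PANC1OR.

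For ACSL3 and ACSL4, PANC1OR replicates 1 and 2 lay above all PANC1 libraries and replicate 3 lay within the PANC1 range. Their adjusted p-values were 0.095 and 0.153 with 6 libraries, and 0.000753 and 0.000728 without PANC1OR replicate 3, with log2 fold changes of 1.05 ± 0.15 and 0.94 ± 0.13. Their transcripts have 37.06% and 35.54% GC, and with GC offsets the log2 fold changes were 0.68 ± 0.10 and 0.53 ± 0.09 (adjusted p = 0.000456 and 0.00161). By CPM per kb, ACSL3 was the largest of the 5 synthetases in each library: ACSL3 held 55.7% ± 1.20 in PANC1 and 56.0% ± 2.22 in PANC1OR, ACSL4 33.0% ± 0.91 and 30.4% ± 1.74, and ACSL1 11% ± 0.73 and 13.3% ± 3.77.

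FABP5, a cytosolic fatty acid binding protein gene, was at 14.07, 20.79 and 12.42 CPM in PANC1 and at 11.96, 11.37 and 9.661 CPM in PANC1OR (log2 fold change -0.51 ± 0.26, adjusted p = 0.231). Another 3 members were removed by the filter on low counts. CD36, the scavenger receptor that takes up fatty acids, had 3 reads in PANC1 and 3 in PANC1OR, which is at the floor. ACSL5, which activates long-chain fatty acids at mitochondria and the endoplasmic reticulum, had 6, 5 and 9 reads in PANC1 and 33, 15 and 7 in PANC1OR, and its CPM did not overlap between the lines. Without PANC1OR replicate 3 it passed the filter and was called higher (1.19 ± 0.37, adjusted p = 0.0306). In that fit ACSL5 passed the filter only through PANC1OR, where it was higher, so the call rests on that selection. With no filter on 6 libraries it was not called (0.98 ± 0.52, 0.278). ACSL6 totalled 4 reads in the parental and 7 in the resistant line. A difference in CD36 was not detectable at this depth.

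Of the 3 nuclear receptor genes, 2 rose and PPARD did not pass on 6 libraries with the filter on low counts and without GC offsets. PPARG, the master regulator of fat cell differentiation (ENSG00000132170, chromosome 3, 12287368 to 12434356), was at 26.77, 31.54 and 25.75 CPM in PANC1 and at 112.9, 125.8 and 103.4 CPM in PANC1OR. The groups were far apart, and the log2 fold change was 2.03 ± 0.19 (4.072-fold, adjusted p = 0.000259). PPARA, the main regulator of fatty acid oxidation genes in liver, was at 13.39, 12.95 and 13.21 CPM in PANC1 and at 22.43, 20.36 and 22.38 CPM in PANC1OR (0.72 ± 0.19, adjusted p = 0.0336). The spread within each line was small, but the call of PPARA was lost when any 1 library but PANC1OR replicate 3 was left out (adjusted p = 0.141, 0.0899 and 0.156 for PANC1 replicates 1 to 3, and 0.149 and 0.0958 for PANC1OR replicates 1 and 2), and with no filter on low counts (0.0982). PPARD, the most widely expressed PPAR, was at 20.79, 27.99 and 21.22 CPM in PANC1 and at 32.48, 28.48 and 65.73 CPM in PANC1OR (0.86 ± 0.34, adjusted p = 0.135). PPARD passed with GC offsets (0.79 ± 0.11, adjusted p = 0.000523) and with no filter (0.0498), and stood at 0.38 ± 0.16 without PANC1OR replicate 3 (0.0866).

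PPARG held 67.7% ± 0.87 of the summed CPM per kb of the 3 receptor genes in PANC1 and 82.7% ± 7.09 in PANC1OR. The sum was 23.3 ± 2.79 CPM per kb in PANC1 and 77.7 ± 3.0 in PANC1OR. PPARG was the highest of the 3 per length in every library, PPARD the next and PPARA the lowest. Among markers of fat cells, ADIPOQ had 0 reads, LEP, CIDEC and PLIN1 were below 0.6 CPM in each library, FABP4 had 1 read in PANC1 and 42 in PANC1OR, and the summed level of the 6 markers was 4.42 to 4.7 CPM in PANC1 and 5.06 to 11.4 CPM in PANC1OR, most of it from the lipase gene LIPE, and the part of such cells in the PPARG result was not tested beyond these values.

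Genes of glycerolipid synthesis and lipid droplets had 1 call among 6. PLIN2, which encodes the protein coat of lipid droplets (ENSG00000147872, chromosome 9, 19108375 to 19149290), was at 9.401, 12.01 and 8.318 CPM in PANC1 and at 76.47, 79.12 and 99.17 CPM in PANC1OR. The groups were far apart, with a log2 fold change of 3.10 ± 0.24 (8.593-fold, adjusted p = 9.82e-05). DGAT2, which completes triglyceride from newly made fatty acids, was at 30.76, 41.68 and 37.06 CPM in PANC1 and at 12.11, 14.86 and 25.93 CPM in PANC1OR. The groups of DGAT2 did not overlap (-1.05 ± 0.31, adjusted p = 0.0521), and the gene passed when PANC1OR replicate 3 was left out (-1.45 ± 0.17, adjusted p = 0.000294). On 6 libraries DGAT2 passed with GC offsets (0.00137), DESeq2 (0.0155), the likelihood ratio test (0.0147) and no filter (0.0102), but not with a replicate block (0.0536). DGAT1, its partner in triglyceride synthesis, was at 17.99, 24.23 and 21.1 CPM in PANC1 and at 10.69, 8.181 and 22.62 CPM in PANC1OR (adjusted p = 0.329, and 0.00152 without PANC1OR replicate 3, at -1.16 ± 0.19).

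Levels of the other 3 genes of the group differed less. LPIN1, a phosphatidate phosphatase gene, was at 85.17, 72.17 and 76.82 CPM in PANC1 and at 116.1, 114 and 110.6 CPM in PANC1OR, without overlap (0.54 ± 0.17, adjusted p = 0.0582, and 0.00506 without PANC1OR replicate 3). GPAM, the mitochondrial acyltransferase that starts glycerolipid synthesis, stood at 0.21 ± 0.25 (adjusted p = 0.634), and at 0.40 ± 0.12 without PANC1OR replicate 3 (adjusted p = 0.032). PNPLA2, the adipose triglyceride lipase gene, was at 37.49 to 44.08 CPM in PANC1, at 33.34 and 29.23 CPM in PANC1OR replicates 1 and 2 and at 89.92 CPM in replicate 3. Its log2 fold change was 0.35 ± 0.41 (adjusted p = 0.643) with 6 libraries and -0.36 ± 0.13 (adjusted p = 0.0556) without PANC1OR replicate 3, so its sign rested on that library.

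**Figure D4:**
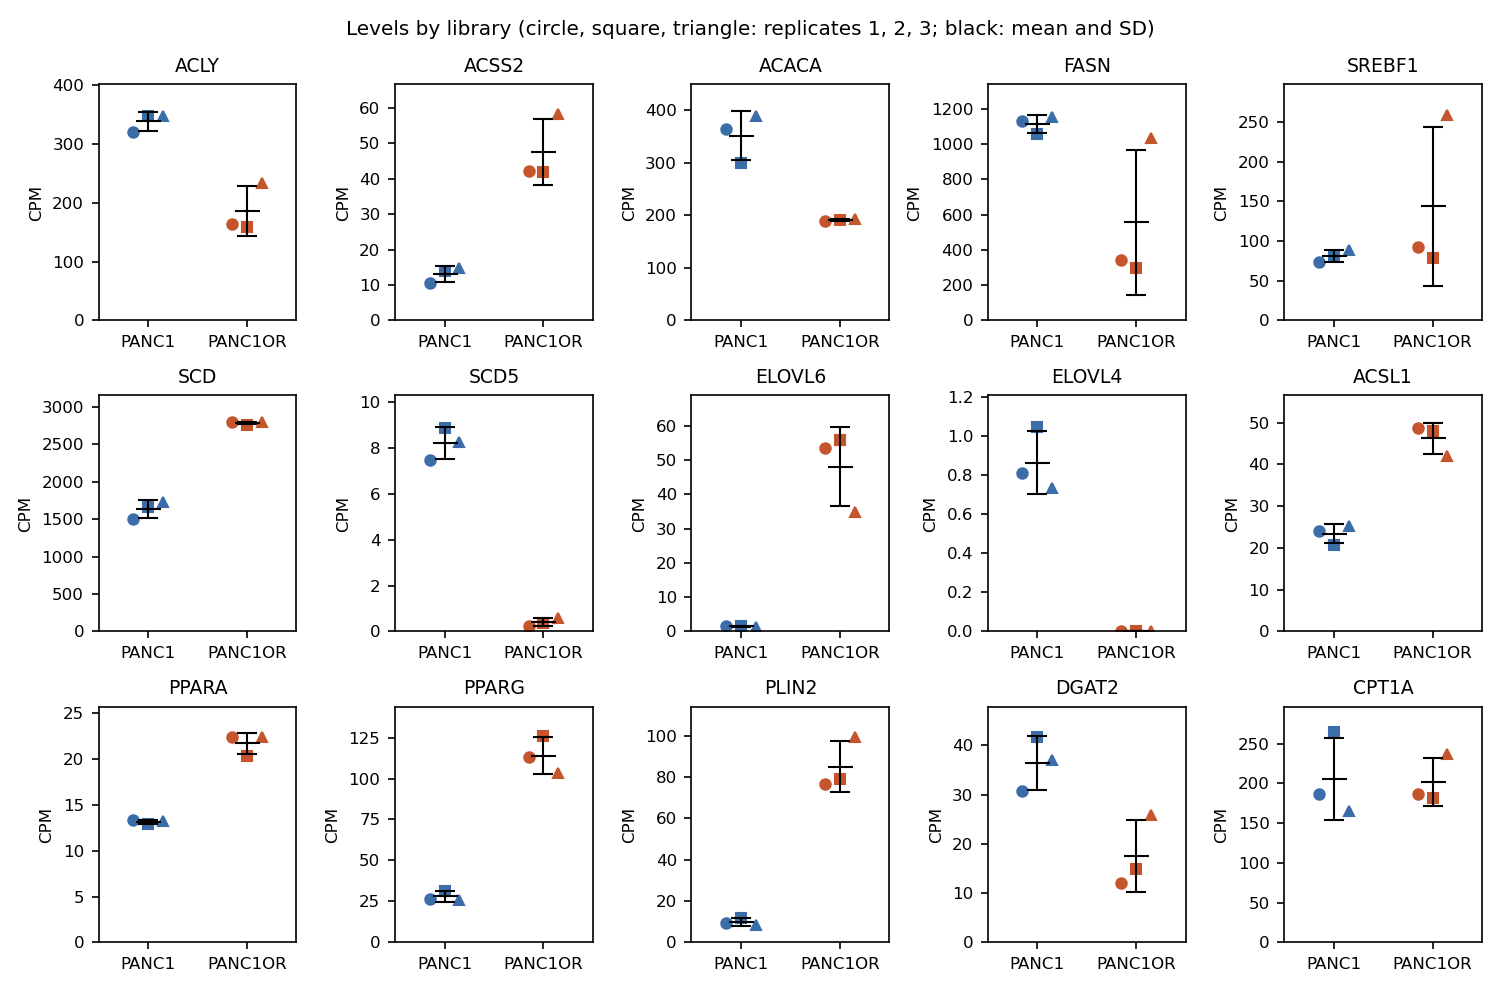
CPM (y axis, from 0) of 15 genes in the 3 libraries of PANC1 and of PANC1OR (x axis), with a symbol for each replicate and the mean with SD in black. PLIN2, PPARG, ELOVL6 and ACSS2 are high in every PANC1OR library, SCD5 and ELOVL4 are near 0 there, and FASN and SREBF1 show PANC1OR replicate 3 at 1031 and 259.5 CPM, far above replicates 1 and 2.

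Genes of mitochondrial import and oxidation had 0 calls among 6 by edgeR's quasi-likelihood test, beside 17.8% of all tested genes. Of the 6, 0 had an unadjusted p under 0.05 in that test, and 0 were called by DESeq2 or by the likelihood ratio test. With 6 genes and that share over all genes, 0 calls say little about the group. CPT1A, which makes the acylcarnitines that enter mitochondria and is the control point of oxidation, was at 186.8, 264.2 and 165.3 CPM in PANC1 and at 186.3, 182.1 and 237.1 CPM in PANC1OR. The groups overlapped fully (log2 fold change -0.03 ± 0.23, adjusted p = 0.961). HADHA and HADHB, the subunit genes of the trifunctional protein, stood at -0.01 ± 0.20 and -0.03 ± 0.16, and CPT2, the inner membrane transferase gene, at -0.22 ± 0.20. The dehydrogenase genes ACADVL and ACADM, for very long and medium chains, stood at 0.63 ± 0.31 (adjusted p = 0.218) and 0.29 ± 0.26 (adjusted p = 0.524). ACADVL, at 309.9 CPM in PANC1OR replicate 3 and at most 156 CPM in the other libraries, was called with GC offsets (0.57 ± 0.09, adjusted p = 0.00107) and stood at 0.19 ± 0.14 without that library (0.3). ACADM was at 92.06 and 92.55 CPM in PANC1OR replicates 1 and 2 and 50.86 CPM in replicate 3, against 57.45 to 68.99 CPM in PANC1, and was the 1 gene of the group called without PANC1OR replicate 3 (0.51 ± 0.12, adjusted p = 0.00838).

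The same fit was read for 135 other lipid genes, listed by role, of which 105 were tested, 12 rose and 5 fell, or 16.2% beside 17.8% of all genes. Mitochondrial oxidation again had 0 calls among 17 tested genes by edgeR's quasi-likelihood test, with 4 at an unadjusted p under 0.05 and 0 by DESeq2 and the likelihood ratio test. Without PANC1OR replicate 3, 3 of these rose and 5 fell (47.1%), near the 44.1% of all genes in that fit. Of 17 genes of peroxisomal oxidation, ACOT8, a thioesterase gene, rose by 1.19 ± 0.34. Of 7 genes of the elongation cycle, the dehydratase genes HACD1 and HACD3 went opposite ways, at 0.76 ± 0.21 and -0.76 ± 0.20. Of 8 genes of carbon supply and mitochondrial synthesis, ACSS1, which activates acetate in mitochondria, rose by 2.33 ± 0.30, from 5.70 ± 0.51 to 28.9 ± 10.3 CPM (adjusted p = 0.00117), and CBR4, a reductase subunit gene, by 1.27 ± 0.30. The calls of CBR4, HACD1 and HACD3 were lost without any 1 library other than PANC1OR replicate 3, with adjusted p-values of up to 0.0883, 0.181 and 0.111. That of ACOT8 was lost without any 1 of the PANC1 libraries (up to 0.174), and that of ACSS1 was kept in all 6 fits.

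Both acetate-activating genes, ACSS2 in the cytosol and ACSS1 in mitochondria, were thus called higher. Of 19 regulators, INSIG1, which retains SREBP precursors in the endoplasmic reticulum, fell by 1.02 on the log2 scale (± 0.19, adjusted p = 0.00736, and 0.0503 without PANC1 replicate 3), and PRKAG2, a subunit gene of the energy sensor AMPK, rose by 0.68 ± 0.18, a call kept only without PANC1OR replicate 3 among the 6 fits (adjusted p of up to 0.167). Of 12 tested uptake and binding genes, LPL, which encodes lipoprotein lipase, rose by 3.57 ± 0.38, from 0.158 to 2.05 CPM. Its PANC1 level is near the floor of 3 reads over the group (0.0715 CPM), so the size of the change is uncertain. LPL passed the filter on low counts only through PANC1OR, where it was higher. Of 19 glycerolipid and droplet genes 4 rose: MGLL, a monoglyceride lipase gene, by 2.15 ± 0.32, LPIN3 by 1.08 ± 0.30, GPAT3 by 0.97 ± 0.19 and HILPDA, a droplet protein gene, by 0.97 ± 0.28. The calls of GPAT3 and HILPDA were lost without any 1 library other than PANC1 replicate 2 and PANC1OR replicate 3 (adjusted p of up to 0.0716 and 0.196), and that of LPIN3 without any 1 PANC1 library or PANC1OR replicate 1 (up to 0.17), whereas those of LPL and MGLL were kept in all 6.

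Of 12 tested genes known as targets of PPARs or SREBPs, 2 rose, 4 fell and 6 were not called. The risen ones are PPAR targets: PDK4, a kinase that restrains pyruvate oxidation, rose from 0.372 ± 0.0614 to 20.5 ± 7.72 CPM (5.73 ± 0.43 in log2, adjusted p = 9.64e-05), and ANGPTL4, a secreted inhibitor of lipoprotein lipase, from 12 ± 3.48 to 80.3 ± 55.4 CPM (2.75 ± 0.48, adjusted p = 0.00575). Those that fell include 3 SREBP targets described here: TMEM97, a sterol-linked membrane protein gene, at -1.54 ± 0.17, INSIG1 as above, and HMGCS1, a sterol synthesis gene named after its value was seen, at -0.90 ± 0.23 (adjusted p = 0.0291, and up to 0.127 without any 1 PANC1 library or PANC1OR replicate 2). Without PANC1OR replicate 3 the log2 fold change of ANGPTL4 was 2.02 ± 0.20 (adjusted p = 0.000121). PDK4, ANGPTL4 and TMEM97 were called in each of the 6 fits without 1 library. PDK4, at 0.372 CPM in PANC1, passed the filter on low counts only through PANC1OR. The called members of synthesis, elongation and desaturation went both ways: ACSS2, SCD and ELOVL6 rose, and ACLY, ACACA, SCD5 and ELOVL4 fell. The part of PPARs or SREBPs in any of these changes was not tested. FABP4, a PPARG target and fat cell marker also named after its values were seen, was not tested and had 1 read in PANC1 against 42 in PANC1OR, a ratio of 32.1 (exact 95% counting interval 5.461 to 1299, which covers counting error only).

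**Figure D5:**
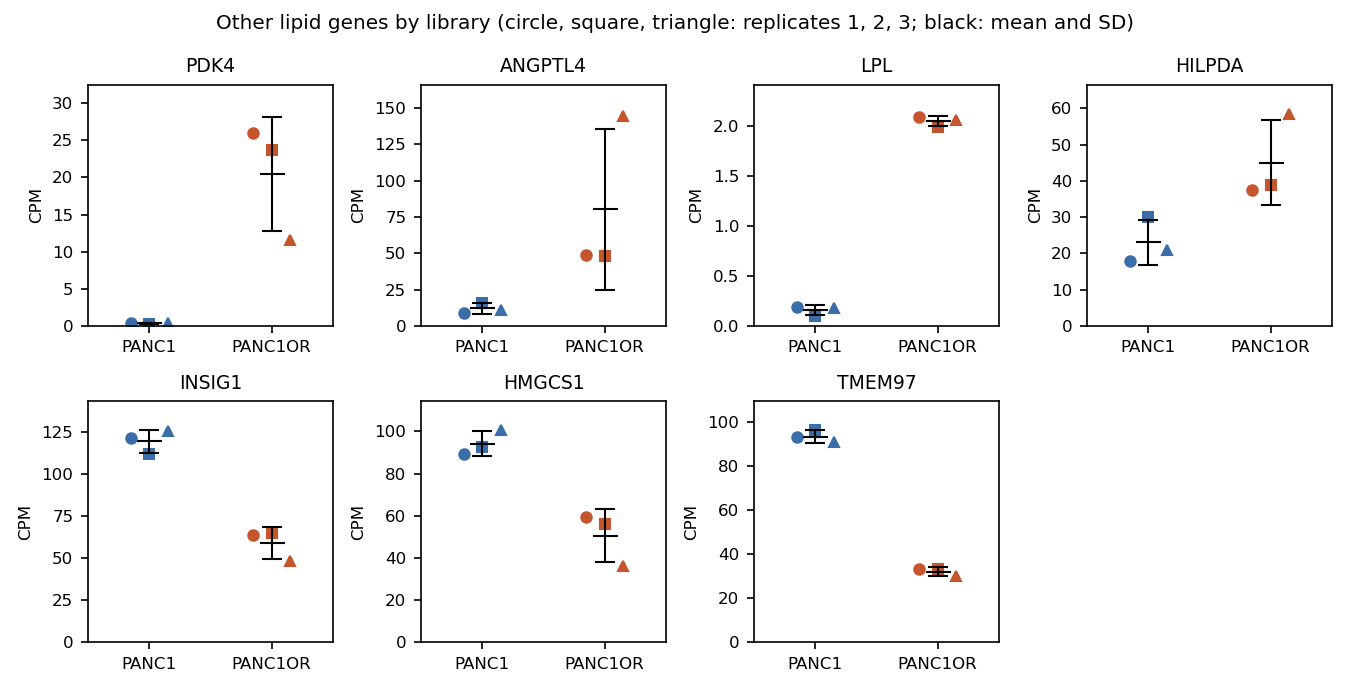
CPM (y axis, from 0) of 7 further lipid genes in the 3 libraries of PANC1 and of PANC1OR (x axis), with a symbol for each replicate and the mean with SD in black. The upper row (PDK4, ANGPTL4, LPL, HILPDA) is higher in every PANC1OR library and the lower row (INSIG1, HMGCS1, TMEM97) is lower in every one.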

How the data were processed

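The authors deposited 1 table of raw whole-number counts, with a row per gene and a column per library. The series design text and the submitters' processing notes name FastQC 0.11.5 for quality, cutadapt from Trim Galore 0.4.2 for trimming, STAR 2.5 for alignment (build GRCh38) and featureCounts from Subread 1.6.2 for counting. They name neither the annotation release nor how strand and multiply aligned reads were handled. Reads of genes that overlap on opposite strands, as at ACLY, ELOVL6, ACSL1, ACSL3, SREBF1 and DGAT2, therefore cannot be told apart. The table had 5 further columns without values.

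Genes were kept with filterByExpr (18751 of 58735), scaled by TMM and compared with edgeR 4.0.16 (R 4.3.3), using its quasi-likelihood F test over 6 libraries with line as the sole term. Benjamini-Hochberg adjustment ran over all tested genes with a threshold of 0.05, standard errors were derived from the F statistic, and the fit was tested on simulated data. There the spread between libraries was capped, so no library stood apart as PANC1OR replicate 3 does here. The fit recovered 21.2% of genes simulated at an absolute log2 fold change of 1, 89.6% at 2 and 100% at 3. A gene that was not called is therefore not shown to be unchanged. The likelihood ratio test that the series design text names was an alternative, as were DESeq2 1.42.0, no filter, GC offsets, a replicate block, the cutoffs of the series design text and fits without libraries. Positions, MANE Select lengths and GC content came from GENCODE release 44 on the same build. Values by library are given for called members and defining genes of each step. Of the other lipid genes, the called ones with a mean of at least 1 CPM were named, up to 4 per list by smallest p, except 1 gene that is not reported here. The members and lists were chosen with earlier results of these data known.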

Additional observations from a re-analysis of the deposited data

How the results depend on the processing

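With 3345 genes called in all, fits that left out 1 library gave 1821 to 8663, with 1920 without PANC1 replicate 1, 1821 without PANC1 replicate 3 and 8663 without PANC1OR replicate 3. In the same fits the members called higher numbered 4 to 14 (7 with 6 libraries) and those called lower 2 to 10 (4 with 6 libraries), and the other lipid genes 5 to 30 and 2 to 24 (12 and 5 with 6 libraries). Without PANC1 replicate 2 and PANC1OR replicate 3 together, 11422 genes, 16 and 12 members and 39 and 30 other lipid genes were called. With GC offsets these were 7312, 14 and 8, and 31 and 20. The design text's stricter cutoffs left 1172 genes, 3 and 2 members, and 5 and 0 other lipid genes, by construction fewer. Without the filter on low counts 7 members were called lower, beside 4281 genes called in all. The cause of the other changes was not tested.

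FADS2, at 0.00023 on the log2 scale with 6 libraries, ranged from -0.36 without PANC1OR replicate 3 to 0.14 without PANC1OR replicate 2. With PANC1OR replicate 3 and PANC1 replicate 2 left out together, FADS2 was at -0.31 and PNPLA2 turned to -0.29. A further 24 values of 9 members called in neither fit changed sign, the farthest from 0 being PNPLA2 at -0.36 without PANC1OR replicate 3. The labels do not state that replicate numbers pair the libraries. Deviations of same-numbered libraries from the mean of their line correlated at 0.464, -0.446 and -0.220, and those of PANC1 replicate 2 and PANC1OR replicate 3 at 0.512. Deviations from a mean of 3 libraries depend on each other, so these values cannot decide whether the numbers pair. With a replicate block, 2324 genes, 5 and 4 members, and 6 and 3 other lipid genes were called, and SCD and PPARA had adjusted p-values of 0.0563 and 0.135. DESeq2 and the likelihood ratio test each called 8 members higher and 6 lower, beside 4128 and 4169 genes called in all (3345 in the main fit). On 6 libraries the filter removed CD36, ACSL5 and ACSL6, whose few reads limit their comparison. ACSL5 was called without PANC1OR replicate 3 (adjusted p = 0.0306), where it passed the filter only through PANC1OR.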
